A study of Mus musculus with 12 samples.

Results

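Very large ubiquitin ligases other than BRUCE were examined through the 6 genes Huwe1, Herc1, Herc2, Trip12, Ubr4 and Mycbp2, which were picked by name as genes for giant ligases with long transcripts. All 6 had a row among the 24062 symbols of the count table, and all 6 were among the 12154 genes left by the filter on low counts. The cells were mouse embryonic fibroblasts (MEFs) carrying shRenilla, a control hairpin against a luciferase that mice lack, or shBruce, a hairpin against Birc6, the gene for BRUCE. Each line was grown in full medium (FM) or starved for 2 hours without serum and amino acids (Starv), giving 4 groups of 3 libraries, and 12 in all. Per the study's methods the sequenced knockdown line carried the hairpin shBruce#1, so that each line stands for 1 hairpin. The labels do not say whether replicates were separate cultures, and p-values then measure only the spread between these libraries.

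Ubiquitin is passed from an E1 to an E2 enzyme and then to a substrate by an E3 ligase. HECT ligases first take ubiquitin onto a cysteine of their own C-terminal HECT domain, whereas RING ligases bring the charged E2 to the substrate. BRUCE joins an E2 domain with the functions of an E3 in 1 very long chain and is known as an inhibitor of apoptosis. Huwe1 encodes a HECT ligase of MCL1, p53 and histones. Herc1 and Herc2 encode HECT ligases with RCC1-like domains, of which HERC2 takes part in the DNA damage response. Trip12 encodes a HECT ligase that controls the tumour suppressor ARF. Ubr4 encodes a UBR box protein that recognizes destabilizing N-terminal residues, and Mycbp2 encodes a RING-type ligase known from axon growth that can modify threonine.

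The members were among the longest transcripts of the table. In GENCODE annotation of GRCm38, the assembly also called mm10, the longest protein-coding transcript measured 14.58 kb for Huwe1 (chrX:151800807-151935417, plus strand, 83 exons) and 15.15 kb for Herc1 (chr9:66350450-66508775, plus strand, 78 exons). It measured 15.26 kb for Herc2 (chr7:56050196-56231800, plus strand, 93 exons) and 15.93 kb for Ubr4 (chr4:139352609-139489588, plus strand, 106 exons). Mycbp2 had 15.23 kb (chr14:103113411-103346814, minus strand, 85 exons), and Trip12, the shortest, had 9.63 kb (chr1:84721189-84840516, minus strand, 41 exons). Birc6, the targeted gene, had 15.77 kb (chr17:74528295-74703356, plus strand, 73 exons). The median gene tested had a transcript of 3.15 kb, and only 322 genes, 2.67% of those with a known length, reached the length of Trip12. Predicted proteins ran from 2025 codons for Trip12 to 5180 for Ubr4, with 4873 for Birc6.

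The hairpin guide is shown with the stretch of each transcript that pairs with it best, because a guide that fits several long transcripts would touch the members too. The guide has 22 bases, with its seed (bases 2 to 8) in capitals. In the sites, written in transcript orientation, capitals mark the bases opposite the seed, whether or not they pair.
shBruce#1 guide: tTTTAAACcatctttgagctgt
Birc6 site, exon 3, chr17:74548787-74548808: acagctcaaagatgGTTTAAAa
Herc2 site, exon 15, chr7:56103794-56103815: aaaccccaaagctgATTGAAAa
Trip12 site, exon 16, chr1:84760829-84760850: acagaacacagatgGTGCAATa
Huwe1 site, across the end of exon 82: tcagctcacacatgTTTTAATc
Mycbp2 site, exon 14, chr14:103285337-103285358: aaagctcacacatgTGTTTTAa
The Birc6 site, in the coding part, matched all 22 bases. The closest ungapped sites in Herc2, Trip12 and Huwe1, also coding, had 6 mismatches, that of Mycbp2 had 7, and the best sites of Herc1 and Ubr4 had 8. Letters that pair with the whole seed (GTTTAAA) occurred 3 times in the Trip12 transcript, once each in Herc1, Herc2 and Huwe1, and not in Mycbp2 or Ubr4. Such a match was common: 64.1% of 315 matched transcripts at least as long as that of Trip12 held one, against 23.2% of all 11587. A letter match is a description of the sequence and not a measured site.

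RefSeq promoters (windows around a transcription start, GRCm38.p6) were found for 5 of the 6 members, 6 promoters in all since Herc2 had 2. Those of Huwe1 and Herc1 are printed, with the palindrome CTCGCGAG in capitals, because they share this motif.
Huwe1 promoter, chrX:151803032-151803331, plus strand: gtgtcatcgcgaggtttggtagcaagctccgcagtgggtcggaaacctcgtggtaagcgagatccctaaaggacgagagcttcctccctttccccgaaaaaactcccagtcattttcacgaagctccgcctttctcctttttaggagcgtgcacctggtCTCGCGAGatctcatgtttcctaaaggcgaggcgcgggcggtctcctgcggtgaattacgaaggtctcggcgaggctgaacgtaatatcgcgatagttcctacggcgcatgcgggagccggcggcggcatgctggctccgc
Herc1 promoter, chr9:66350200-66350499, plus strand: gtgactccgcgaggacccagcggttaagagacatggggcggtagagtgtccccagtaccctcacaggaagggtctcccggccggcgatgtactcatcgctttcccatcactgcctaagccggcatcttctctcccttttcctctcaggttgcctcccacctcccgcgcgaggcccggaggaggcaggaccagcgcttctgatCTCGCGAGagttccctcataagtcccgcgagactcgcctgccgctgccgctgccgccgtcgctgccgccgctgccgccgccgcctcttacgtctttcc
The palindrome was searched for after the sequences had been read, and 0.919% of 32851 RefSeq promoters hold it. On either strand, the GC box GGGCGG occurred in 5 of the 6 member promoters, all but that of Trip12 (35.7% of all promoters), and CCAAT in 1 Herc2 promoter (37.4% of all). AAGATGGCG occurred in the Ubr4 promoter only (1.4% of all), while CACGTG, TGACGTCA and CCGGAAG were in none of the 6 windows (7.15%, 1.79% and 8.86% of all). Every member promoter was rich in CG dinucleotides, with 29 to 38 each against a median of 7 over all promoters. The start that RefSeq gives Huwe1, Ubr4, Trip12 and the second Herc2 promoter lies inside the span of the GENCODE gene.

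Totals ran from 7717265 counts (shBruce Starv 1) to 18510540 (shRenilla FM 1). Birc6 checked the labels: its normalized counts (scaled to a common library size) were 2787 to 5061 in the 6 shRenilla libraries and 703 to 1390 in the 6 shBruce libraries, with no overlap. Of 10 fibroblast markers, 8 exceeded a CPM (count relative to the library total) of 10 in every library, although Thy1 stayed at or below 0.162. Summed epithelial markers reached at most 3.11 CPM, endothelial ones 4.54 and leukocyte ones 9.7. Among the leukocyte markers Cd68 had 3.76 to 8.73 CPM, while Cd3e was at 0 throughout. Libraries also differed in how counts depended on transcript length. The length slope, the change in log2 count per doubling of transcript length relative to the mean of all libraries, was 0.212 and 0.205 in shRenilla Starv 1 and 2, but 0.034 in shRenilla Starv 3. It was -0.021 to 0.117 in shRenilla FM, -0.102 to -0.063 in shBruce FM, and -0.173, -0.233 and 0.038 in shBruce Starv 1, 2 and 3. A slope of this kind bears directly on members with transcripts this long, and values with the length and GC trends of each library removed are therefore given beside the counts.

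The 6 genes were expressed at different levels. Per kb of transcript, as RPKM computed from the normalized counts and averaged over 12 libraries, Huwe1 stood highest at 40.3 (18.2 to 61.6) and Trip12 next at 37.9 (25.7 to 48.3). Ubr4 followed at 22.1 (11.7 to 32.3), then Mycbp2 at 9.22 (7.16 to 12.1), Herc1 at 8.07 (4.11 to 10.9) and Herc2 at 7.77 (3.68 to 11.7). Trip12 was above Ubr4, and Ubr4 above Mycbp2, in 12 of 12 libraries. Huwe1 was above Trip12 in 7, Mycbp2 above Herc1 in 10 and Herc1 above Herc2 in 8, so that these neighbours did not separate beyond their spread. Birc6 had 18.8 ± 4.09 (SD, n = 3) in shRenilla FM, between Ubr4 at 23.4 ± 2.89 and Herc1 at 9.66 ± 1.24. Huwe1 exceeded 81.8% of the genes tested per kb, and Herc2 41.3%. Together the members took 0.098% (shBruce Starv 2) to 0.250% (shRenilla Starv 1) of a library's counts.

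**Figure D1:**
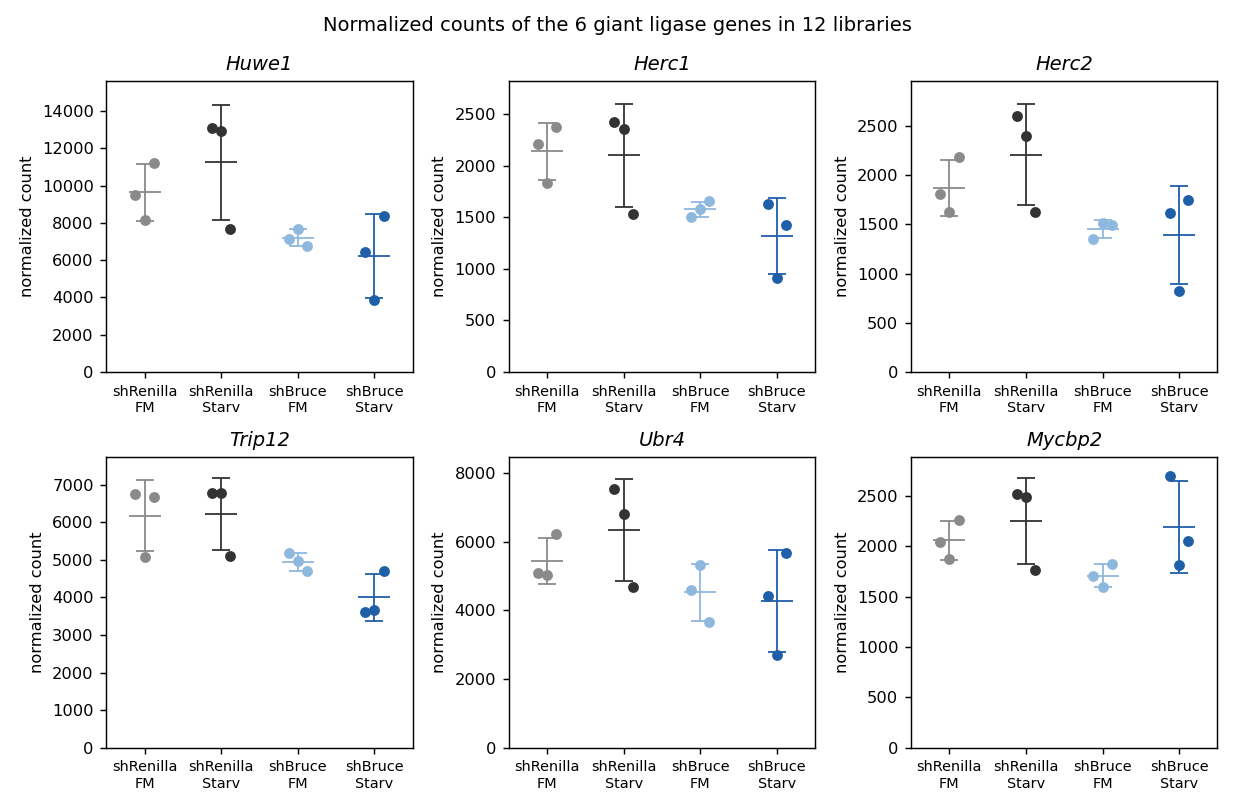
Normalized counts (vertical axes, from 0) of the 6 genes in each of the 12 libraries, as points by group in replicate order, with bars for mean ± SD of 3 libraries. In Huwe1, Herc1, Herc2, Trip12 and Ubr4 the lowest library is a shBruce Starv library, whereas Mycbp2 has its highest value (2695) there.

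Huwe1 had normalized counts of 9511, 8167 and 11234 in shRenilla FM and 13112, 12957 and 7668 in shRenilla Starv. In shBruce it had 7144, 7693 and 6781 in FM and 6429, 3875 and 8384 in Starv. The lines did not overlap in FM, and in Starv they overlapped through the third library of each line. Herc1 had 2209, 1837 and 2372 in shRenilla FM and 2423, 2360 and 1528 in shRenilla Starv. In shBruce, Herc1 had 1507, 1580 and 1654 in FM and 1629, 909 and 1425 in Starv. The lines were separate in FM, and in Starv they overlapped because shRenilla Starv 3 lay below shBruce Starv 1.

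Herc2 had 1805, 1630 and 2186 in shRenilla FM and 2599, 2397 and 1625 in shRenilla Starv. The shBruce libraries held 1352, 1518 and 1496 counts of Herc2 in FM, and 1611, 820 and 1747 in Starv. The FM groups were apart and the Starv groups overlapped. Trip12, the shortest transcript, had 6761, 5088 and 6673 in shRenilla FM and 6768, 6791 and 5109 in shRenilla Starv. It had 5177, 4960 and 4708 in shBruce FM and 3623, 3663 and 4717 in shBruce Starv. Trip12 thus overlapped between lines in FM but not in Starv, the only member for which that was so. The share of all genes without overlap in Starv was not counted, so this is not shown to be particular to Trip12.

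Ubr4 had 5089, 5028 and 6224 in shRenilla FM and 7527, 6806 and 4672 in shRenilla Starv. It had 4600, 5323 and 3661 in shBruce FM and 4425, 2714 and 5672 in shBruce Starv, and the lines overlapped in both media. Mycbp2 had 2045, 1873 and 2261 in shRenilla FM and 2514, 2487 and 1760 in shRenilla Starv. Its shBruce values were 1700, 1594 and 1826 in FM and 2695, 1816 and 2052 in Starv. The lines did not overlap in FM, but in Starv they covered the same range, and the highest Mycbp2 value of all 12 libraries was that of shBruce Starv 1, the shallowest library.

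The first comparison asked whether knockdown cells differed from control cells in full medium. All 6 members had lower means in shBruce, by log2 fold changes of -0.27 (Ubr4 and Mycbp2) to -0.44 (Herc1), but none passed an adjusted p of 0.05 in edgeR's quasi-likelihood test with Benjamini-Hochberg adjustment. The background was 0%: edgeR called none of the 12154 genes here, with 1750 at an unadjusted p under 0.05, while limma-voom called 0 and DESeq2 71. Huwe1 had -0.42 ± 0.25 (log2 fold change ± SE; adjusted p = 0.427) and Herc1 -0.44 ± 0.21 (adjusted p = 0.356). Huwe1, Herc1, Herc2 and Mycbp2 did not overlap between lines, with an exact two-sided permutation p of 0.1 each, the smallest that 3 against 3 libraries allow. The share of all genes without overlap was not counted, so this separation is not shown to be particular to the members. The median over the members was -0.34, beside 0.01 over all genes and -0.33 over the 322 genes with transcripts at least as long as that of Trip12. With the length and GC trends removed the members ran from -0.09 to 0.06, with Trip12 and Mycbp2 at 0.06 and a median of -0.08, and none was called. Birc6 itself had -1.75 ± 0.25 (adjusted p = 0.0627) in this fit and passed in DESeq2 (adjusted p = 9.17e-08).

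After starvation, shBruce libraries had less Huwe1, Herc1 and Trip12 than shRenilla libraries. Huwe1 fell to 0.554 of the control level (log2 fold change -0.85 ± 0.26 SE, adjusted p = 0.0332), from 11246 ± 3099 to 6229 ± 2261 normalized counts (SD, n = 3). Herc1 fell to 0.627 (-0.67 ± 0.21, adjusted p = 0.0379), and Trip12 to 0.643 (-0.64 ± 0.16, adjusted p = 0.0239). Herc2 had the same log2 fold change as Herc1 with a wider error (-0.67 ± 0.24, adjusted p = 0.062), Ubr4 had -0.57 ± 0.25 (adjusted p = 0.0999), and Mycbp2 had -0.05 ± 0.17 (adjusted p = 0.86). So 3 of 6 members were called, all lower, where 23.9% of the genes tested were called in either direction and 11.2% lower. Among the 322 genes with long transcripts 35.7% were called lower and 2.17% higher. The median log2 fold change was -0.65 for the members, -0.54 for the long transcripts and 0.00 for all genes. In bulk RNA, fewer cells that express a gene and less of its RNA per cell cannot be told apart.

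These 3 calls were lost in fits without certain single libraries and in the fit with the length and GC trends removed together. No fit removed the trend with length alone. No member was called without shRenilla Starv 1, without shRenilla Starv 2 or without shBruce Starv 2, 1 (Herc1) without shBruce Starv 1, and 5 (all but Mycbp2) without the third library of either starved group. The calls over all genes moved as well, at 0 of 12295, 0 of 12301, 15 of 12284 and 573 of 12254 in that order. Without shRenilla Starv 3 they were 2933 of 12295, and without shBruce Starv 3 they were 5735 of 12278. A fit of only the 6 starved libraries called no member and no gene. With the length and GC trends of each library removed, Huwe1 had -0.36 (95% interval -0.63 to -0.10, adjusted p = 0.0834), Herc1 -0.14 (-0.34 to 0.05, adjusted p = 0.32) and Trip12 -0.07 (-0.28 to 0.15, adjusted p = 0.698), and none was called. Birc6 kept -1.43 (-1.65 to -1.21, adjusted p = 9.9e-05) in that fit, against -1.98 ± 0.25 as counted (adjusted p = 0.0186). The only member called there was Mycbp2, at 0.50 (0.24 to 0.76, adjusted p = 0.0385), the opposite sign to its value as counted. That fit called 5.58% of all genes, and without shBruce Starv 1 Mycbp2 had 0.42 (adjusted p = 0.0705). Removing the trends takes out any true change that follows length, and its part in the members' fall was not tested further.

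**Figure D2:**
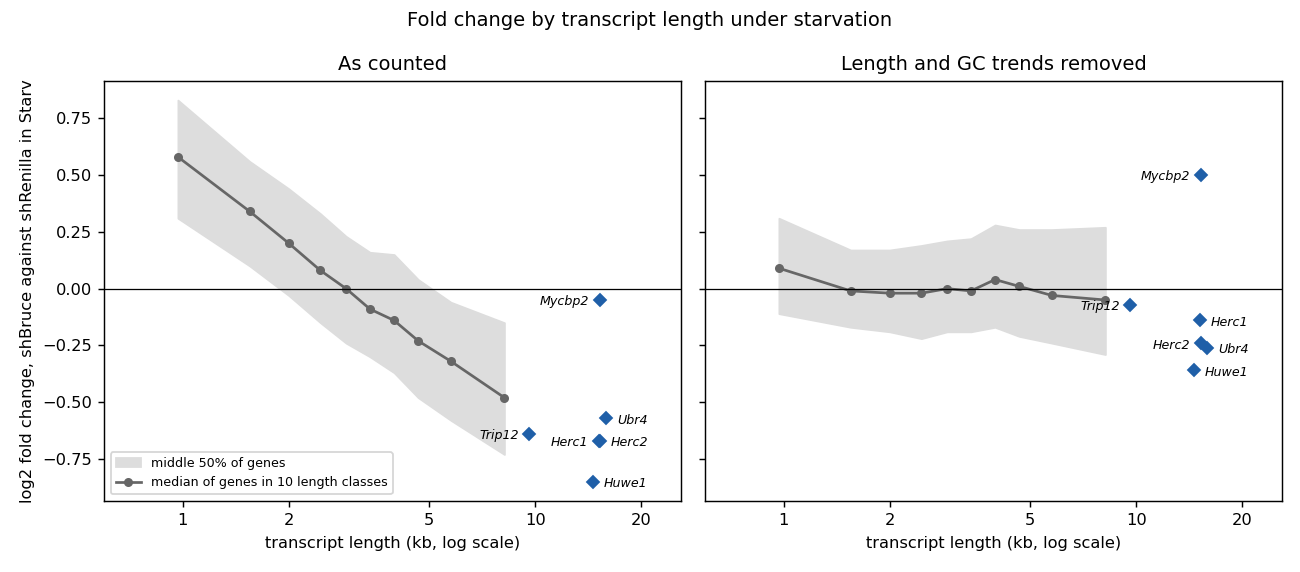
Log2 fold change of shBruce against shRenilla in Starv (vertical axis) by transcript length in kb (log scale), as counted (left) and with trends removed (right). The grey line joins medians of 10 length classes of about 1205 genes, the band is the middle 50% of genes, and diamonds are the 6 members. As counted the medians run from 0.58 in the shortest class to -0.48 in the longest, and after removal from 0.09 to -0.05.

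The line difference of the members sat on a trend across the whole table. In the starved libraries the median log2 fold change fell in every step through 10 classes of transcript length, from 0.58 for a median length of 0.97 kb to -0.48 for 8.18 kb. The share called lower rose with it, from 0.166% in the shortest class to 36.2% in the longest. Ranked among the 322 long transcripts, Huwe1 had 262 genes with a higher log2 fold change, Herc1 215, Herc2 212, Trip12 200 and Ubr4 170. Mycbp2 had 60 above it and Birc6 320. As counted, the 5 members other than Mycbp2 therefore lay in the lower part or near the middle of these long transcripts, and Mycbp2 in their upper part. With the trends removed Huwe1 had 260 of the 322 above it, Ubr4 232, Herc2 227, Herc1 197, Trip12 168 and Mycbp2 48.

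**Figure D3:**
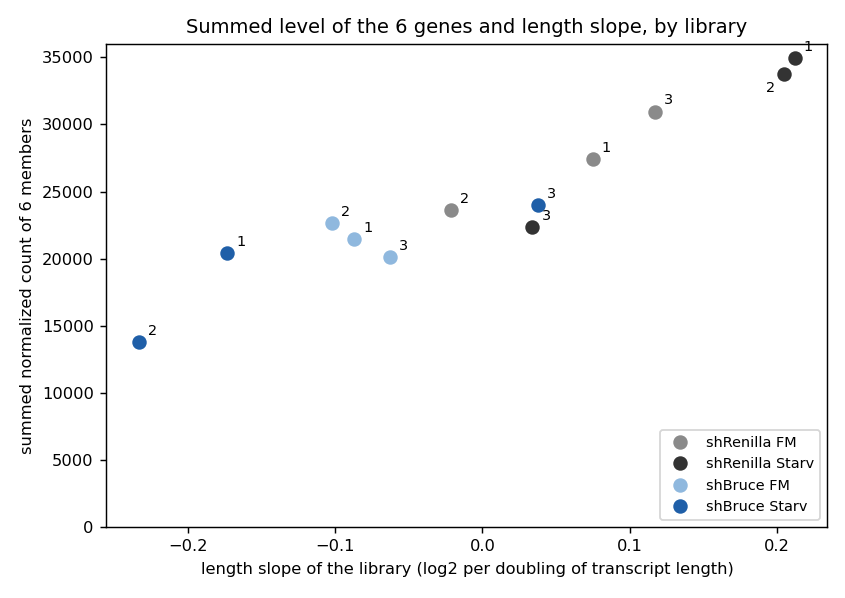
Summed normalized count of the 6 members (vertical axis, from 0) against the length slope of the library (log2 per doubling of transcript length), 1 point a library, numbered by replicate. The 2 libraries of highest slope, shRenilla Starv 1 and 2, have the highest sums (34943 and 33798), and the library of lowest slope, shBruce Starv 2, has the lowest (13798).

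Averaged over both media, shBruce had less of all 4 HECT members. Huwe1 had -0.64 ± 0.18 (log2 fold change ± SE, adjusted p = 0.0214), Herc1 -0.56 ± 0.15 (adjusted p = 0.0179), Herc2 -0.52 ± 0.17 (adjusted p = 0.0382) and Trip12 -0.48 ± 0.11 (adjusted p = 0.0129). Ubr4 (-0.42 ± 0.17, adjusted p = 0.0792) and Mycbp2 (-0.16 ± 0.12, adjusted p = 0.314) did not pass. The background was 32.1% called, 15.7% lower, and 48.1% lower among the long transcripts, so that 4 of 6 stood above all genes and nearer to the long ones. Trip12 passed in 12 of 12 fits that left out a library, Herc1 in 9, Huwe1 in 8 and Herc2 in 5. The count fell to 1 (Trip12) without shRenilla FM 3, shRenilla Starv 1 or shRenilla Starv 2, and to 2 (Herc1 and Trip12) without shRenilla FM 1. In that order these fits called 1396 of 12314, 1552 of 12295, 1401 of 12301 and 1695 of 12317 genes. With the trends removed no member was called (10.7% of all genes were): Trip12 then had -0.0031 (-0.16 to 0.15), Huwe1 -0.23 (-0.41 to -0.04, adjusted p = 0.102) and Birc6 -1.41 (-1.56 to -1.25, adjusted p = 2.04e-06).

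Starvation itself moved no member past the threshold in either line. In shRenilla cells, where 17.0% of genes were called, 0 of 6 members were, with log2 fold changes from -0.02 (Herc1) to 0.24 (Herc2). The interval for Trip12 was -0.33 to 0.35 and that for Huwe1 -0.32 to 0.77, so that changes within these ranges were not excluded. In shBruce cells, where 23.0% were called, 0 of 6 members were, and values ran from -0.31 ± 0.16 for Trip12 (adjusted p = 0.177) to 0.36 ± 0.17 for Mycbp2 (adjusted p = 0.144). With the trends removed, when 33.0% of genes were called in shBruce, 3 members were: Herc1 at -0.26 (adjusted p = 0.0427), Trip12 at -0.31 (adjusted p = 0.0334) and Mycbp2 at 0.39 (adjusted p = 0.0239). Without shBruce Starv 1 as well, only Herc1 passed (-0.36, adjusted p = 0.00172), and Mycbp2 had 0.31 (adjusted p = 0.0569). Herc1 then also passed in shRenilla, at -0.21 (adjusted p = 0.0148).

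**Figure D4:**
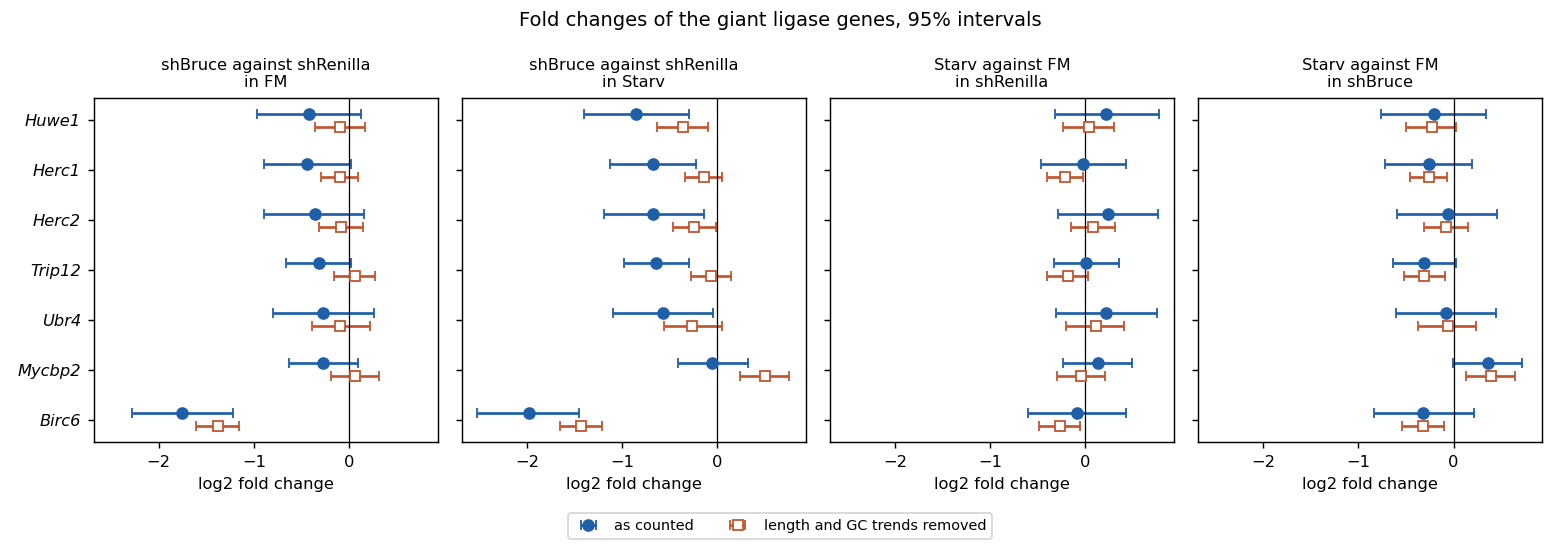
Log2 fold changes (horizontal axes) of the 6 members and Birc6 in 4 comparisons, with 95% intervals, as counted (filled circles) and with the length and GC trends of each library removed (open squares). Birc6 lies below -1 in both line comparisons either way, while the members lie between -0.85 and 0.50.

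The test of whether the line difference changed with the medium called no member, and no gene of the table (0%; 474 genes at an unadjusted p under 0.05, and 0 called by limma-voom or DESeq2). The interaction was -0.43 (95% interval -1.21 to 0.34) for Huwe1, -0.24 (-0.88 to 0.40) for Herc1, -0.32 (-0.80 to 0.16) for Trip12 and 0.23 (-0.28 to 0.74) for Mycbp2. The members that passed in Starv and not in FM are thus not shown to differ between media.

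The 6 genes were also compared with each other within each library, which takes library scaling out. The log2 ratio of Mycbp2 to the geometric mean of the other 5 members lay between -1.08 and -0.95 in all 6 shRenilla libraries. It was -0.92, -1.11 and -0.77 in shBruce FM, and -0.19, -0.11 and -0.79 in shBruce Starv. Mycbp2 was thus higher relative to the others in all 3 starved knockdown libraries than in any control library, and most of all in those with the lowest length slopes. Huwe1 moved the other way, from 1.60 to 1.83 in shRenilla to 1.20 to 1.65 in shBruce, with overlap. Herc2 and Ubr4 had the same mean ratio within 0.14 in all 4 groups. This comparison was made after the values were seen and carries no test.

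**Figure D5:**
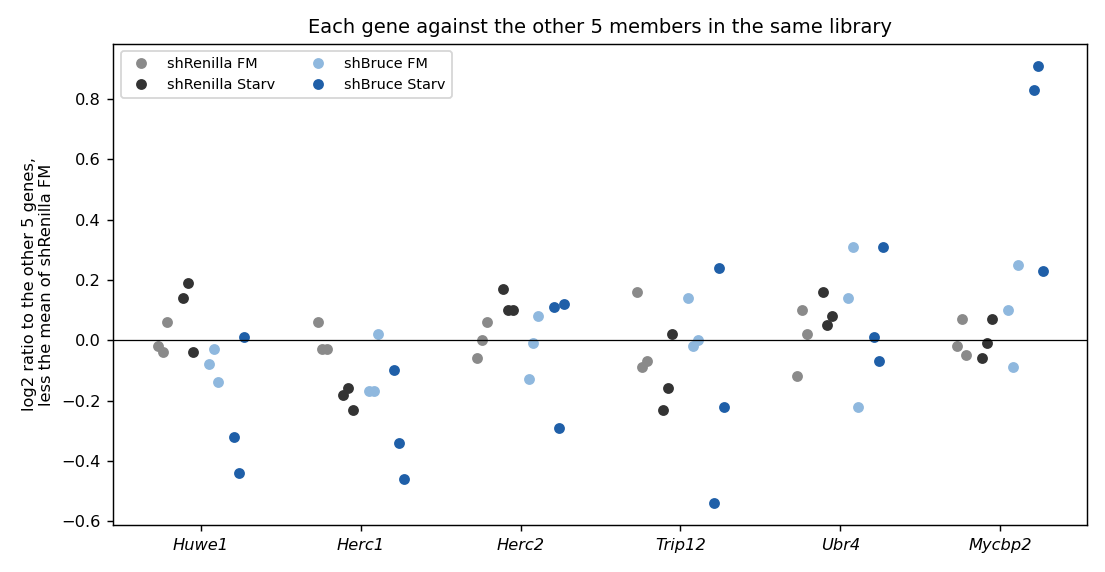
Log2 ratio of each gene to the geometric mean of the other 5 members in the same library, less its mean in shRenilla FM (vertical axis), for the 12 libraries coloured by group. Mycbp2 in shBruce Starv lies above all its other groups in 2 of 3 libraries, and the third lies at about the highest of shBruce FM.

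Across the 12 libraries Huwe1, Herc1, Herc2, Trip12 and Ubr4 correlated with each other at a Pearson's r of log2 CPM of 0.78 (Trip12 and Ubr4) to 0.97 (Huwe1 and Herc2). Mycbp2 had 0.24 with Trip12 to 0.62 with Herc2. In deviations from the group means, which take out differences between groups, Mycbp2 had 0.91 with Herc1, 0.76 with Herc2, 0.68 with Huwe1, 0.54 with Ubr4 and 0.42 with Trip12. Trip12 had 0.42 to 0.79 with the other members on that scale. Libraries share depth, group and length slope, so these values describe the table and carry no p. The genes whose pattern was most like a member's were taken from all 12154, and their transcripts ran from 4582 bases (Diap3) to 23279 (Dst), against a median of 3148 over the table. For Huwe1 they were Hcfc1 (r = 0.989), Il6st (0.987) and Dst (0.986), for Herc1 Diap3 (0.989), Gapvd1 (0.983) and Ptpn14 (0.982), and for Herc2 Pkd1 (0.989), Glis3 (0.983) and Gatad2b (0.983). Trip12 was closest to Med14 (0.984), Nf1 (0.981) and Cltc (0.98), and Ubr4 to Hcfc1 (0.968), Ppp1r12b (0.961) and Abhd2 (0.96). Mycbp2 was closest to Kmt2c (0.945), Kmt2a (0.938) and Ddx6 (0.926), of which Kmt2c and Kmt2a encode histone methyltransferases. The mean of the 6 members was matched best by Cbl (0.984), Klhl11 (0.984), Dst (0.981), Rapgef6 (0.979) and Wdfy3 (0.978), of which Klhl11 has a transcript of only 2393 bases, and by Birc6 at 0.873, with 344 genes closer.

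Smaller relatives of the members were measured in the same fits. Of 23 other HECT ligases 20 were tested, and in Starv 18 had a log2 fold change below 0 in shBruce. The median was -0.61 (-1.0 to 0.18), and 9 were called lower and 0 higher. The background called lower was 11.2% of all genes and 35.7% of the 322 long transcripts. The largest falls were those of G2e3 (-1.0 ± 0.21, adjusted p = 0.0225) and Wwp1 (-0.87 ± 0.21, adjusted p = 0.0237). The 5 other UBR box proteins had a median of -0.71 and all were below 0. Against the same background 3 were called lower. They were led by Ubr1 (-0.87 ± 0.20, adjusted p = 0.0225) and Ubr3 (-0.73 ± 0.20, adjusted p = 0.0283). With the trends removed these 4 genes had -0.40, -0.31, -0.35 and -0.22, and none passed. Averaged over both media 17 of the 20 HECT genes were below 0 and 12 were called lower. G2e3 led them (-0.77 ± 0.15, adjusted p = 0.00961), and had -0.26 with the trends removed (adjusted p = 0.0585). As counted, 15.7% of all genes and 48.1% of the long transcripts were called lower in that comparison. For starvation in shBruce 15 of the 20 were below 0 and 5 were called lower, where 10.6% of all genes were. Herc3 (-0.66 ± 0.18, adjusted p = 0.0177) and Smurf2 (-0.53 ± 0.14, adjusted p = 0.0173) led them. In shRenilla 7 of the 20 were below 0 and 0 were called lower, where 7.27% of all genes were. With the trends removed 7 were called lower in shBruce, and 4 lower and 1 higher in shRenilla. The interaction called none in either fit. The shares of all genes with the trends removed were 18.7% lower in shBruce, and 13.6% lower and 11.8% higher in shRenilla.

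The cofactors of the giant ligases were measured too. The 9 partners tested include calmodulin and KCMF1 for UBR4, NEURL4 for HERC2, and FBXO45, SKP1 and RAE1 for MYCBP2. The E2 enzymes UBE2L3 and UBE2D3 were also among them. In Starv 4 of the 9 were below 0 in shBruce, and only Uba6 was called lower (-1.12 ± 0.28, adjusted p = 0.0244). Uba6 encodes the E1 enzyme that charges BRUCE, and with the trends removed it had -0.54 (adjusted p = 0.069). So 1 of 9 was called lower, where 11.2% of all genes were, and the 9 ran from -1.12 to 0.66 with a median of 0.24. As counted, none of the 9 was called in FM or by starvation in either line. With the trends removed starvation called 1 lower in shRenilla, and 1 lower and 1 higher in shBruce. Of all genes 13.6% were then called lower in shRenilla, and 18.7% lower and 14.3% higher in shBruce.

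Very large proteins that are not ligases showed the same direction as the members. Of 26 such genes 25 had a log2 fold change below 0 in shBruce in Starv, with a median of -0.73. Among the 26, 14 were called lower and 0 higher. Called lower there were 11.2% of all genes and 35.7% of the 322 long transcripts. Among them Vps13c, which encodes a lipid transfer protein, had -1.36 ± 0.38 (adjusted p = 0.0286). With the trends removed 20 of the 26 were below 0 and 2 were called lower. The median was -0.29, beside -0.19 for the members, -0.04 for the 322 long transcripts and 0.00 for all genes. In that fit 1.9% of all genes and 4.97% of the long transcripts were called lower. Starvation lowered Plec, a cytoskeletal linker, in shRenilla (-0.54 ± 0.15, adjusted p = 0.0247) and in shBruce (-0.64 ± 0.15, adjusted p = 0.00779), and Macf1, a linker of actin and microtubules, in shBruce (-0.65 ± 0.18, adjusted p = 0.0187).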

How the data were processed

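Poly(A) RNA was sequenced in single 50-base reads. The authors mapped them to mm10 with STAR 2.4.0d and deposited raw read counts per gene symbol from HTSeq 0.5.4p3. The annotation and strand setting are not given in the sources used here. Group and replicate came from the labels.

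From the deposited counts, edgeR 4.0.16 (R 4.3.3) fitted all 12 libraries with 1 mean per group (TMM scaling, filterByExpr, quasi-likelihood test, Benjamini-Hochberg adjustment over 12154 genes, level 0.05). Normalized counts and single-gene permutation tests used the same scaling. Alternatives were DESeq2 1.42.0, limma-voom (limma 3.58.1), no filter, other sample sets, a replicate block, and offsets removing each library's trend (splines with 4 degrees of freedom) against length and GC content (known for 99.2% of genes). Chi-square per degree of freedom between replicates was 2.21 to 95.2, so no replicates differed by counting error alone. This cannot show whether they came from separate cultures. Scripts were tested on simulated data.

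The members and lists were chosen with earlier results of these data known. Named genes were the members, Birc6, the 2 largest changes past the level in either direction within a list, and the genes of most similar pattern (3 for each member, 5 for their mean). Of 24062 symbols, 27 had turned into dates. Hectd4 and Rnf213 were not analysed here. Some genes that this rule names are not reported here.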

Additional observations from a re-analysis of the deposited data

How the results depend on the processing

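Of 868 values of the 6 members and Birc6 under an alternative, 746 kept their direction and their side of the threshold, 53 no longer passed, 31 passed only there and 38 changed sign. Fitting only the groups compared gave 1 member called in FM (Herc1) in place of 0, and 0 in Starv in place of 3. Over all genes it called 597 of 11680 in FM and 0 of 11969 in Starv, in place of 0 and 2907 of 12154. With the length and GC trends removed the count was 1 for the line difference in Starv, 0 for the averaged one in place of 4, and 3 for starvation in shBruce in place of 0. With the replicate block and the trends removed it was 0, 0 and 2, where 1, 559 and 3709 of 12154 genes were called. An alternative added after seeing the data, the trends removed with shBruce Starv 1 left out, gave 0 in Starv, and 1 (Herc1) each averaged over both media, for starvation in shRenilla and for starvation in shBruce. Of 12254 genes it called 282, 1789, 4698 and 4508 in that order. Leaving out each library in turn gave 0 to 5 members in Starv, 1 to 5 averaged over both media, and 0 to 1 for starvation in shBruce. Over all genes the same fits called 0 to 5735, 1396 to 6081 and 1855 to 4009. The causes were not tested beyond these fits.

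The replicate block alone left 3 members called in Starv, 4 in the averaged comparison and 0 elsewhere. Of 12154 genes it called 1932 in Starv and 3280 in the averaged comparison. It called 1770 for starvation in shRenilla, 2450 for starvation in shBruce, and 0 in FM and for the interaction. Deviations of same-numbered libraries from their group means correlated at -0.456 to 0.347. Libraries of different number were not compared in this way, so these values cannot show whether the numbers pair the libraries.

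Changes of sign were of small values, apart from Mycbp2. Its line difference had 0.06 in FM under all 3 fits with the trends removed. In Starv it had 0.50 (also with the block) and 0.42 without shBruce Starv 1, and averaged 0.28 and 0.24. Its starvation value in shRenilla had -0.05. For Trip12, the line difference with the trends removed had 0.06 in FM. Without shBruce Starv 1 it had 0.01 in Starv and 0.03 averaged, and there Ubr4 had 0.01 for starvation in shBruce. Starvation in shRenilla gave Trip12 -0.0006 under the DESeq2 size factors and test, -0.01 without a filter and -0.18 with the trends removed. With single libraries left out, starvation in shRenilla ranged from -0.12 to 0.13 for Trip12, -0.14 to 0.16 for Herc1 and -0.26 to 0.13 for Birc6. Starvation in shBruce ranged from -0.49 to 0.04 for Huwe1, -0.27 to 0.20 for Herc2 and -0.35 to 0.15 for Ubr4, and the line difference of Mycbp2 in Starv from -0.24 to 0.07. Depth limits shBruce Starv 1 most, with 7717265 counts.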
